A study of Mus musculus with 42 samples.

Results

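Lung mesenchymal cells cultured on a stiff gel were compared with the same kind of cells on a soft gel by RNA-seq, a readout of transcript levels gene by gene. The comparison holds 6 RNA libraries, 3 from cells on 32 kPa gels and 3 from cells on 0.2 kPa gels, out of 42 samples in the series, of which 21 are RNA libraries. They were chosen by their labels and by no measured value. In both groups the cells came from lungs of CD1 mice with a Col1a1-GFP reporter. GFP-positive cells negative for CD45, EpCAM and CD31 were sorted from digested lungs and kept for 5 days on silicone (PDMS) gels coated with collagen I, in DMEM with 10% serum. The gels differed in stiffness, 32 or 0.2 kPa, and no other difference is labelled. For context, 3 libraries of freshly sorted CD1 Col1a1-GFP cells (labelled sham) and 12 libraries of Col1a2-lineage cells from C57BL/6 mice, 4 each at day 14 and day 56 after bleomycin and 4 sham, are cited where they touch a gene of the gel comparison. Bleomycin is a drug that injures the lung. The labels give no age or sex for these groups and do not say whether the numbered replicates are separate animals or cultures, so every p-value here reflects the variation among these libraries, and that variation may be technical. The reporter marks cells that transcribe Col1a1, so other lung mesenchymal cells are represented only as far as they do.

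Fibroblasts read the stiffness of their surroundings through integrins, which couple the matrix to the actin cytoskeleton. Tension in that skeleton is known to bring the coactivators YAP and TAZ, which work with TEAD factors, and MRTF, which works with SRF, into the nucleus. Their best known targets include Ctgf, Cyr61 and Ankrd1 for YAP and TAZ, and smooth muscle actin and other contractile genes for MRTF.

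Values are the authors' normalised read counts, rescaled here by 1 factor per library, and serve to compare a gene between libraries, not genes with each other. A fold change is the difference of mean log2(value + 1), 32 kPa minus 0.2 kPa, so a negative value means lower on 32 kPa. The libraries hold 35858180, 50930110 and 68929926 recovered reads on 32 kPa and 47932576, 48448507 and 40858047 on 0.2 kPa. The read totals of the groups overlapped (two-sided exact permutation test, p = 0.7, where 3 libraries against 3 cannot go below 0.1). The labelled cell type was borne out by its markers. Col1a1 and Col1a2 were abundant in all 6 libraries, and the summed level of 10 general mesenchymal markers was 14130 to 14650 CPM (counts scaled to library size) on 32 kPa and 13520 to 15160 on 0.2 kPa. Of 16 epithelial markers 4 were at 0 in all gel libraries, among them Krt8 and Nkx2-1, and their sum was 4.87 to 5.73 CPM on 32 kPa and 5.06 to 6.94 on 0.2 kPa. The sum of 18 leukocyte markers was 14.6 to 14.9 CPM on 32 kPa and 17.7 to 25.6 on 0.2 kPa, without overlap (two-sided exact permutation test, p = 0.1, the smallest possible). The sum of 12 adventitial fibroblast markers was 488 to 498 CPM on 32 kPa and 568 to 597 on 0.2 kPa, likewise without overlap (two-sided exact permutation test, p = 0.1), and Dcn and Col15a1, given with the matrix genes, are members of that list. The sum of 10 pericyte markers was 378 to 474 CPM on 32 kPa and 465 to 529 on 0.2 kPa (two-sided exact permutation test, p = 0.2). A few members carried the leukocyte, adventitial and pericyte sums. Csf1r was the largest leukocyte value, while Cd68 was 4.72, 5.15 and 3.46 CPM on 32 kPa against 3.3, 3.91 and 4.22 on 0.2 kPa. Serpinf1 was the largest adventitial value, and Dpp4 and Ly6c1 were near 0. Cd34 went the other way, with 85.7, 68.7 and 74.9 CPM on 32 kPa against 71.3, 59.1 and 66.5. Pdgfrb and Cspg4 made up nearly all of the pericyte sum. The part of these markers in the results was not tested. Since these are bulk samples, fewer cells of a type and less RNA per cell cannot be told apart.

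Replicate 3 of the 32 kPa libraries stood apart from the other two 32 kPa libraries and lay with the soft gel libraries. On the first principal component, which held 54.5% of the variance, the 32 kPa libraries scored 33.7, 50.3 and -30.6 for replicates 1, 2 and 3, and the 0.2 kPa libraries scored -26.7, -20.5 and -6.21. Across genes, log2 values of 32 kPa replicate 3 correlated at 0.976 and 0.969 (Pearson) with 32 kPa replicates 1 and 2, and at 0.993, 0.993 and 0.988 with the 0.2 kPa libraries. 32 kPa replicate 3 also held the most reads and the most detected genes, 17872, against 16394 and 16311 in 32 kPa replicates 1 and 2 and 17340 to 17576 on 0.2 kPa. Its label was kept. Counts of genes are given with and without it, and so are the calls of many, not all, of the genes named.

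**Figure D1:**
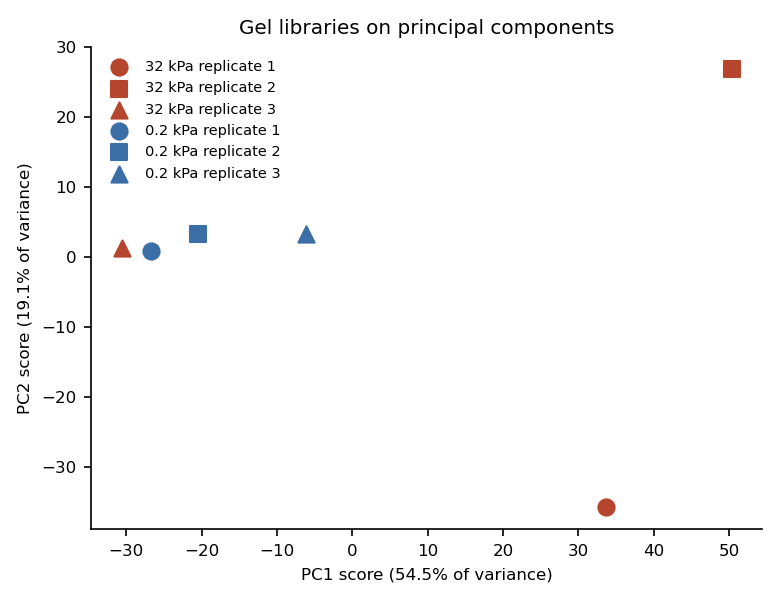
Principal components of the 6 gel libraries, from log2 values of all genes tested, with the first component (54.5% of variance) across and the second (19.1%) upwards. Red marks are 32 kPa and blue marks 0.2 kPa. The triangle of 32 kPa replicate 3, at -30.6, lies beside the 0.2 kPa libraries, whereas 32 kPa replicates 1 and 2 lie at 33.7 and 50.3.

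With all 6 libraries, no gene passed the limma test. For 785 genes (5.51%) all 3 stiff values, replicate 3 included, lay below the soft ones. Spp1, Il11, Cthrc1, Mgp and Adamtsl2, genes for secreted matrix and signalling proteins, were among those of lowest p. For 610 genes (4.28%), Rassf1 and Tgm2 among them, all 3 stiff values lay above the soft ones. Both shares are near the 0.05 that a random order of the libraries would give in each direction. The classical stiffness readouts Ctgf, Cyr61, Ankrd1, Col1a1 and Fn1 lay close to equal levels on both gels.

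Of 14245 genes tested by limma, 0 passed an adjusted p of 0.05, which is 0% of the genes. At an unadjusted p under 0.05 there were 262 genes higher (1.84%) and 393 lower (2.76%) on 32 kPa. The 3 stiff values lay wholly above the 3 soft values for 610 genes (4.28%) and wholly below them for 785 genes (5.51%). Under a random order of the 6 libraries, a share of 0.05 would separate so in each direction, and both observed shares are near it. edgeR's quasi-likelihood test on the recovered reads also called 0 genes, with 340 higher and 347 lower at an unadjusted p under 0.05. DESeq2 on the same reads called 47 of 14236 genes (0.33%), 6 higher and 41 lower. The authors' deposited table calls 41 of 14405 named genes (0.285%), 4 higher and 37 lower, all of which are among the 47. Whether a gene is called with 6 libraries therefore depends on the method.

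Without 32 kPa replicate 3, limma called 3453 of 14248 genes, 1934 higher (13.6%) and 1519 lower (10.7%) on 32 kPa. Leaving out any other single library called 0 genes. The library was left out because it stood apart in these same values, so this count describes how the other two stiff libraries differ from the soft ones and is no independent result. The count also rests on few libraries: with 1 more library left out it was 1012 without 32 kPa replicate 2 and 4695 without 0.2 kPa replicate 3, the ends of its range.

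**Figure D2:**
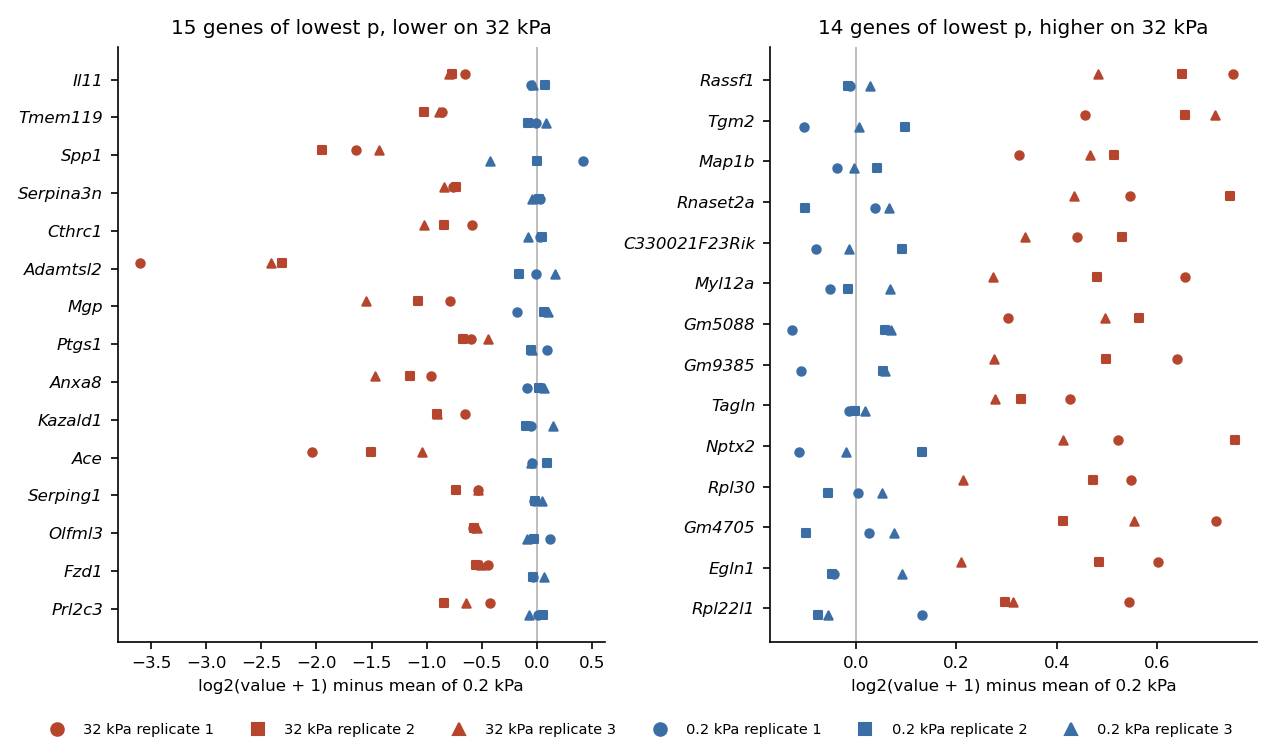
Genes of lowest p in each direction among those whose groups did not overlap, 15 lower on 32 kPa at left and 14 of the 15 higher at right. Each mark is 1 library, as log2(value + 1) minus the mean of the 0.2 kPa libraries, with 32 kPa in red and 0.2 kPa in blue. Adamtsl2 and Spp1 lie farthest left, and 32 kPa replicate 3 (red triangle) stands with the other red marks on the same side as them, not with the blue ones.

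The 15 genes of lowest p in each direction were taken for having groups that do not overlap, so the separation of their libraries is part of how they were chosen. Il11 had the lowest p of the 15 lower genes. This gene encodes an interleukin 6 family cytokine that fibroblasts make in response to TGF-beta, and it had 8202, 7540 and 7402 normalised counts on 32 kPa, against 12463, 13585 and 12621 on 0.2 kPa. All 3 stiff libraries were lower, and they spread less than the gap to the soft ones. Its log2 fold change was -0.74 ± 0.08 (SE, limma adjusted p = 0.33), and -0.71 without 32 kPa replicate 3 (limma adjusted p = 0.002). Spp1, which encodes osteopontin, a secreted phosphoprotein of matrix and cytokine function, had 1199, 967 and 1386 counts on 32 kPa, against 4996, 3756 and 2792 on 0.2 kPa. The stiff libraries lay together well below the soft ones, which themselves differed widely. Its fold change was -1.67 ± 0.22 with 6 libraries (limma adjusted p = 0.33) and -1.80 without replicate 3 (limma adjusted p = 0.002). The authors' deposited table gives Spp1 a log2 fold change of -1.70 and an adjusted p of 2.2e-09.

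Cthrc1, a secreted protein known as a mark of activated fibroblasts, had 3360, 2815 and 2487 counts on 32 kPa, against 5149, 5215 and 4793 on 0.2 kPa. Replicate 3 was the lowest of the stiff libraries here. Mgp, an inhibitor of calcification bound to matrix, had 22976, 18793 and 13573 counts on 32 kPa, against 35148, 41634 and 42722 on 0.2 kPa, and again replicate 3 was the lowest. Cthrc1 had a log2 fold change of -0.82 ± 0.12 and Mgp of -1.14 ± 0.19, both short of the limma threshold with 6 libraries (adjusted p = 0.40 and 0.43) and past it without replicate 3 (adjusted p = 0.0025 and 0.0021). After the trend with transcript length and GC content was removed from each library, Il11, Cthrc1 and Mgp were the 3 genes that limma called with all 6 libraries, with adjusted p of 0.034, 0.034 and 0.034 and log2 fold changes of -0.76, -0.87 and -1.25.

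Adamtsl2, a secreted glycoprotein that binds fibrillin and the latent TGF-beta binding protein LTBP1, had only 4.21, 11.7 and 10.9 counts on 32 kPa, against 62.2, 55.6 and 70.0 on 0.2 kPa. The groups were far apart at low levels, and its mean was 0.143 times that of the soft gel. Its log2 fold change of -2.78 ± 0.43 was the most negative of the 15 genes (limma adjusted p = 0.42, and 0.0033 without replicate 3). Serpina3n, a secreted inhibitor of serine proteases of the acute phase, had 417, 426 and 395 counts on 32 kPa, against 722, 719 and 686 on 0.2 kPa. Serpina3 genes are near-identical copies among which reads may be split, so its level is uncertain. Tmem119, a membrane protein best known from microglia and bone-forming cells, had 390, 348 and 383 counts on 32 kPa, against 709, 671 and 754 on 0.2 kPa. Both genes showed tight groups and a gap wider than either group's spread.

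The other lower genes included a pair of enzymes and a receptor. Ptgs1, the constitutive cyclooxygenase of prostaglandin synthesis, had 5899, 5597 and 6548 counts on 32 kPa, against 9504, 8587 and 8638 on 0.2 kPa. Ace, the enzyme that makes angiotensin II, had 70.1, 102 and 142 counts on 32 kPa, against 284, 311 and 282 on 0.2 kPa, with replicate 3 the nearest to the soft libraries. Fzd1, a receptor of WNT ligands, had 1776, 1643 and 1697 counts on 32 kPa, against 2359, 2355 and 2516 on 0.2 kPa. Serping1 (the inhibitor of complement component C1), Olfml3, Kazald1, Anxa8 and Prl2c3 completed the 15, with mean ratios of 0.438 (Anxa8) to 0.676 (Olfml3) of stiff over soft. Prl2c3 belongs to a family of near-identical genes, so its reads may come from a relative. All 15 passed the limma threshold without replicate 3, beside 10.7% of all genes called lower there. That test reuses the libraries by which the 15 were chosen, so it is no separate support. Their direction could not alter, since their groups do not overlap.

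Among the 15 higher genes, 14 of which are named here, Rassf1, a scaffold protein of the Hippo pathway upstream of YAP, had 6517, 6072 and 5407 counts on 32 kPa, against 3840, 3826 and 3946 on 0.2 kPa. Its log2 fold change was 0.63 ± 0.09 (limma adjusted p = 0.40), and 0.70 without replicate 3 (limma adjusted p = 0.002). Tgm2, a transglutaminase that crosslinks matrix proteins, had 3441, 3953 and 4118 counts on 32 kPa, against 2334, 2685 and 2518 on 0.2 kPa. Here replicate 3 was the highest of the stiff libraries, and the fold change was 0.61 ± 0.10 with it and 0.56 without it. Map1b, a microtubule-associated protein, had 4010, 4574 and 4426 counts on 32 kPa, against 3119, 3297 and 3195 on 0.2 kPa.

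A pair of contractile genes stood among these 15. Tagln, which encodes the actin-binding protein SM22, had 91190, 85111 and 82206 counts on 32 kPa, against 67133, 67699 and 68629 on 0.2 kPa. Myl12a, a regulatory light chain of non-muscle myosin, had 67068, 59359 and 51404 counts on 32 kPa, against 41071, 42074 and 44593 on 0.2 kPa. In both, replicate 3 was the lowest stiff library and still lay above all soft ones. Their fold changes were 0.34 ± 0.09 and 0.47 ± 0.11, with limma adjusted p of 0.71 for each with 6 libraries, and 0.0074 and 0.0029 without replicate 3. The other higher genes were Egln1, an oxygen-sensing prolyl hydroxylase, Nptx2, Rnaset2a, Rpl30, Rpl22l1, C330021F23Rik and the predicted genes Gm5088, Gm9385 and Gm4705, with mean ratios from 1.31 (Rpl22l1) upwards. All 14 higher genes named passed the limma threshold without replicate 3, beside 13.6% of all genes called higher there. Here too the test reuses the libraries by which the genes were chosen. Ribosomal protein genes and predicted genes have many copies with nearly the same sequence, so their counts are uncertain.

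The textbook readouts of stiffness differed little between the gels. Ctgf had 142453, 129092 and 137814 counts on 32 kPa, against 129228, 134816 and 134154 on 0.2 kPa, with a fold change of 0.04 ± 0.09. Cyr61 had 70164, 66690 and 60616 counts on 32 kPa, against 57569, 58996 and 63651 on 0.2 kPa, with 0.13 ± 0.10. Both encode secreted matricellular proteins and their groups overlapped. Ankrd1, a muscle ankyrin repeat protein, had 20640, 22007 and 24934 counts on 32 kPa, against 22220, 21874 and 20550 on 0.2 kPa, so its fold change of 0.06 ± 0.10 became -0.02 without replicate 3. Of 39 genes of the YAP and TAZ list, 0 were called by limma with 6 libraries, 0 had an unadjusted p under 0.05 in either direction, and edgeR and limma called 0 genes overall. Without replicate 3, 4 of the 39 were called higher and 5 lower, shares near the 13.6% and 10.7% of all genes called so. Ctgf, Cyr61 and Ankrd1 were not called there either. The kinase gene Nuak2 was among those called higher (0.48), and it had 4269, 4664 and 3162 counts on 32 kPa, against 2969, 3231 and 3406 on 0.2 kPa, where stiff replicate 3 lay within the soft range. The list's counts moved when the trend with transcript length and GC content was removed as well. Then 11 of 37 genes tested were called higher and 4 lower without replicate 3, beside 18.4% and 8.12% of all genes.

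**Figure D3:**
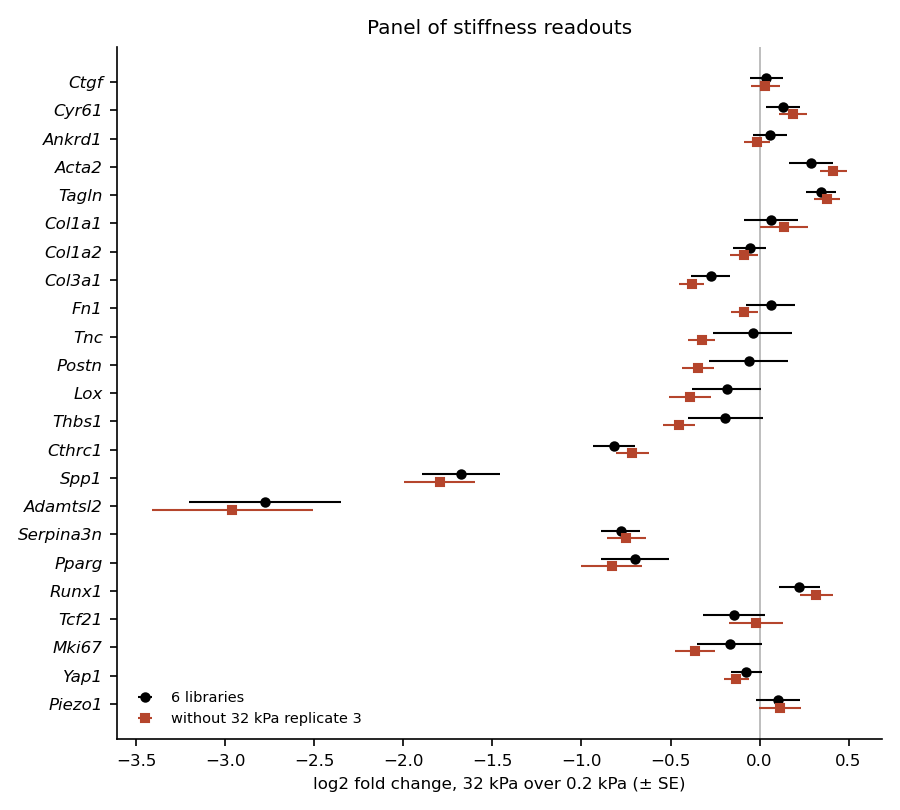
Log2 fold changes of 23 genes often used as stiffness or activation readouts, 32 kPa over 0.2 kPa, with standard errors. Black circles use 6 libraries and red squares leave out 32 kPa replicate 3. Ctgf and Ankrd1 lie at 0 within their errors, Tagln and Acta2 lie to the right, and Adamtsl2 and Spp1 lie farthest to the left.

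Some contractile genes, not the class as a whole, were higher on 32 kPa in the first and second stiff libraries. Acta2, smooth muscle actin, had 144890, 140281 and 109914 counts on 32 kPa, against 104396, 104925 and 111524 on 0.2 kPa. Replicates 1 and 2 exceeded every soft library and replicate 3 lay among them. The fold change was 0.29 ± 0.12 with 6 libraries (limma adjusted p = 0.71) and 0.42 without replicate 3 (limma adjusted p = 0.0062). Tagln2, a relative of Tagln, had 71276, 79450 and 46926 counts on 32 kPa, against 40619, 43111 and 47833 on 0.2 kPa, the same pattern. Of 32 MRTF, SRF and contractile genes, 4 were higher and 0 lower at an unadjusted p under 0.05, beside 1.84% and 2.76% of all genes. After adjustment 0 passed. Without replicate 3, 9 were called higher, including Actb (0.49) and Srf itself (0.71), and 1 lower, Lmod1 (-0.61), a leiomodin of smooth muscle, beside 13.6% and 10.7% of all genes. With the length and GC trend removed as well, 12 of 30 tested were called higher and 3 lower, beside 18.4% and 8.12% of all genes. The median of the list was 0.07 with 6 libraries, beside 0.00 for all genes, and 0.04 without replicate 3, beside -0.01. The sum of 9 smooth muscle markers was 202, 214 and 246 CPM on 32 kPa, against 220, 230 and 240 on 0.2 kPa (two-sided exact permutation test, p = 0.5). In stiff replicates 1 and 2 it lay below every soft library.

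Transcripts of collagen I and fibronectin overlapped between the gels. Col1a1 had 79620, 81114 and 68404 counts on 32 kPa, against 61016, 70794 and 89944 on 0.2 kPa, with a fold change of 0.06 ± 0.15. Col1a2 had a fold change of -0.06 ± 0.09. Fn1, fibronectin, had 116906, 122980 and 163066 counts on 32 kPa, against 128556, 126695 and 126621 on 0.2 kPa, so that replicate 3 alone lay above the soft libraries. Tnc (tenascin C), Postn (periostin) and Thbs1 (thrombospondin 1), all matricellular proteins, followed the same pattern. Without replicate 3, limma called Tnc (-0.33) and Thbs1 (-0.45) lower and did not call Fn1 (-0.09). Postn had 9396, 10082 and 17538 counts on 32 kPa, against 12513, 13572 and 11126 on 0.2 kPa, which leaves -0.06 ± 0.22 with 6 libraries and -0.35 without replicate 3 (limma adjusted p = 0.023). Col3a1, a fibrillar collagen, had 9654, 10431 and 12521 counts on 32 kPa, against 13232, 13172 and 12812 on 0.2 kPa, so its groups did not overlap, with a fold change of -0.27 ± 0.11. Of 32 collagen and collagen-processing genes, 1 was higher and 4 were lower at an unadjusted p under 0.05, beside 1.84% and 2.76% of all genes. The lower ones included Col6a3 (-0.50), Col15a1 (-0.34) and Col6a1 (-0.43). Without replicate 3, 1 was called higher and 7 lower, beside 13.6% and 10.7% of all genes, and Col3a1 was among those that fell, by 0.38.

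Several proteoglycans and other glycoproteins of the matrix were lower on 32 kPa at an unadjusted p. Of 36 genes, 0 were higher and 10 lower at an unadjusted p under 0.05, against 1.84% and 2.76% of all genes. The stiff values lay wholly below the soft ones for 12 of the 36, beside 5.51% of all genes. These members include the small leucine-rich proteoglycans Fmod (-1.86), Aspn (-1.11), Ogn (-0.41), Lum (-0.39) and Dcn (-0.30), which bind collagen fibrils, besides Spp1, Cthrc1 and Adamtsl2. Fmod, fibromodulin, had 37.9, 55.6 and 36.8 counts on 32 kPa, against 118, 112 and 295 on 0.2 kPa, with 1 soft library far above the rest. The list's median was -0.23 with 6 libraries, and without replicate 3 it was -0.36, where 1 member was called higher and 17 lower, beside 13.6% and 10.7% of all genes. All lists and their members, Serpina3n, Spp1, Cthrc1 and Adamtsl2 among them, were chosen with earlier results of these data known. The lists' counts therefore describe these genes and are no independent evidence.

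**Figure D4:**
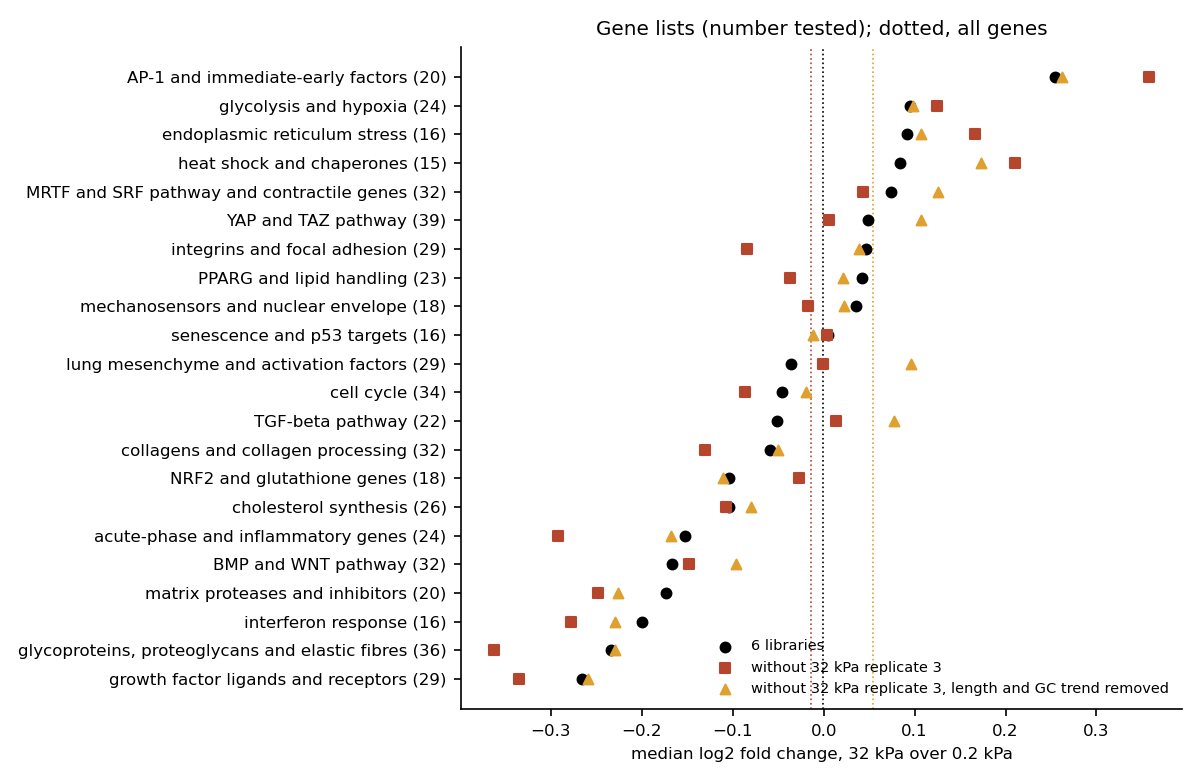
Median log2 fold change, 32 kPa over 0.2 kPa, of each of 22 gene lists, with the number of genes tested in brackets. Black circles use 6 libraries, red squares leave out 32 kPa replicate 3, and yellow triangles also have the length and GC trend removed; dotted lines give all genes. AP-1 and immediate-early factors have the highest median and growth factors, glycoproteins and interferon genes the lowest.

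Matrix proteases and their inhibitors showed a like shift. Of 20 genes tested, 0 were higher and 7 lower at an unadjusted p under 0.05, beside 1.84% and 2.76% of all genes. Without replicate 3, 2 were called higher and 10 lower, beside 13.6% and 10.7% of all genes. Serpine2, an inhibitor of thrombin and plasminogen activators, had 1892, 1713 and 1684 counts on 32 kPa, against 2321, 2496 and 2431 on 0.2 kPa, and Timp3, an inhibitor of metalloproteinases, had 48065, 48382 and 56676, against 70197, 69545 and 65534. Both genes had tight, separate groups. Ctsk, the collagen-degrading cathepsin K, had a fold change of -0.33 ± 0.08. Without replicate 3, limma called Serpine2, Timp3 and Ctsk lower. The collagenase gene Mmp13 had 1512 and 1385 counts in 32 kPa replicates 1 and 2 but 2856 in replicate 3, against 2796, 2964 and 2855 on 0.2 kPa. It fell by 0.99 on the log2 scale without replicate 3 (limma adjusted p = 0.0018).

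Ligands, receptors and antagonists of the BMP and WNT pathways had more members lower than higher. Of 32 genes tested, 1 was higher and 8 were lower at an unadjusted p under 0.05, beside 1.84% and 2.76% of all genes. Without replicate 3, 3 were called higher and 12 lower, beside 13.6% and 10.7% of all genes. Bmp2, a BMP ligand, had 89.8, 80.0 and 85.2 counts on 32 kPa, against 142, 271 and 188 on 0.2 kPa. Fst, follistatin, an antagonist of activins, had 1309, 1264 and 1481 counts on 32 kPa, against 2086, 1966 and 1732 on 0.2 kPa. Dkk3, a secreted protein of the Dickkopf family, had 180, 231 and 269 counts on 32 kPa, against 422, 374 and 354 on 0.2 kPa. These 3 genes had groups that do not overlap, and limma called them lower without replicate 3. Grem1, gremlin 1, an antagonist of BMPs, differed: it had 899, 897 and 2608 counts on 32 kPa, against 2965, 3119 and 2415 on 0.2 kPa, so replicate 3 alone matched the soft libraries. Without that library Grem1 fell by 1.65 on the log2 scale (limma adjusted p = 0.00077).

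Growth factor genes had the lowest list median, -0.27 with 6 libraries. Of 29 tested, 2 were higher and 8 lower at an unadjusted p under 0.05, beside 1.84% and 2.76% of all genes. Without replicate 3, 5 were called higher and 11 lower, beside 13.6% and 10.7% of all genes. Igfbp5, a binding protein of insulin-like growth factors, had 102, 147 and 242 counts on 32 kPa, against 591, 398 and 694 on 0.2 kPa, a fold change of -1.82 ± 0.33. Angpt2, a ligand of the endothelial TIE2 receptor, had 122, 137 and 150 counts on 32 kPa, against 241, 257 and 226 on 0.2 kPa. Fgf7, a fibroblast growth factor that acts on epithelium, had 9666, 8203 and 11223 counts on 32 kPa, against 14332, 12484 and 12169 on 0.2 kPa. In all of these 3 the stiff values lay below the soft ones, and limma called them lower without replicate 3. Pparg, the nuclear receptor of lipid-storing fibroblasts, had 269, 206 and 310 counts on 32 kPa, against 462, 444 and 360 on 0.2 kPa, a fold change of -0.70 ± 0.19 (limma adjusted p = 0.71, and 0.0094 without replicate 3). The list of PPARG and lipid handling genes did not share its direction as a whole, with a median of 0.04. Of its 23 genes tested, 1 was higher and 5 lower at an unadjusted p under 0.05, beside 1.84% and 2.76% of all genes. Without replicate 3, 5 were called higher and 5 lower, beside 13.6% and 10.7% of all genes. Of 26 cholesterol synthesis genes, 0 were higher and 4 lower at an unadjusted p under 0.05, beside 1.84% and 2.76% of all genes. The 4 were Cyp51, Sqle, Nsdhl and Sc5d. Without replicate 3, 1 was called higher and 8 lower, beside 13.6% and 10.7% of all genes.

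AP-1 and immediate-early factors, transcription factors that cells switch on within minutes of a stimulus, had the highest list median, 0.25 with 6 libraries and 0.36 without replicate 3. With the length and GC trend removed, the median with 6 libraries was 0.15, where that of all genes was 0.04. Of 20 genes, 3 were higher and 0 lower at an unadjusted p under 0.05, beside 1.84% and 2.76% of all genes. Jun, a subunit of AP-1, had 3796, 4123 and 3163 counts on 32 kPa, against 2194, 2667 and 3060 on 0.2 kPa. Atf3, a stress-induced partner of Jun, had 217, 211 and 242 counts on 32 kPa, against 134, 163 and 165 on 0.2 kPa. Egr1 had 5234, 6148 and 5046 counts on 32 kPa, against 3940, 4310 and 4865 on 0.2 kPa. In each the groups did not overlap, though for Jun and Egr1 the lowest stiff and highest soft library were close. Without replicate 3, 10 of the 20 were called higher and 1, Egr3, lower, beside 13.6% and 10.7% of all genes. Jun and Egr1 were among those called and Atf3 was not. Of 15 heat shock and chaperone genes, 2 were higher and 0 lower at an unadjusted p under 0.05, beside 1.84% and 2.76% of all genes. Without replicate 3, 6 were called higher and 1 lower, beside 13.6% and 10.7% of all genes. The 2 higher with 6 libraries were Hspa1b and Hspa1a, chaperones induced by heat and other stress. Their fold changes were 0.60 ± 0.18 and 0.99 ± 0.33 (limma adjusted p = 0.71 for each, and 0.0046 and 0.0074 without replicate 3). These are a near-identical gene pair, so their reads may be split between them.

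Some inflammatory, TGF-beta and NRF2 genes were lower on 32 kPa at an unadjusted p. Over all genes, 1.84% were higher and 2.76% lower at an unadjusted p under 0.05. Of 24 acute-phase and inflammatory genes tested, 1 was higher and 6 were lower at an unadjusted p under 0.05, and without replicate 3, 2 were called higher and 7 lower, beside 13.6% and 10.7% of all genes. Ptges, the enzyme that completes prostaglandin E synthesis downstream of cyclooxygenase, had 1804, 1687 and 1812 counts on 32 kPa, against 2355, 2319 and 2501 on 0.2 kPa. Il1rl1, the receptor of interleukin 33, had 4621, 4549 and 6207 counts on 32 kPa, against 7429, 7356 and 7115 on 0.2 kPa, with replicate 3 between the other stiff libraries and the soft ones. Both were called lower without replicate 3. Of 22 genes of the TGF-beta list, 0 were higher and 2 lower at an unadjusted p under 0.05, Il11 and Tgfbi, a matrix protein induced by TGF-beta. Tgfbi had 51.9, 56.6 and 173 counts on 32 kPa, against 166, 174 and 151 on 0.2 kPa, so replicate 3 again matched the soft libraries. Without replicate 3, 4 of the TGF-beta list were called higher and 4 lower, beside 13.6% and 10.7% of all genes. Of 18 NRF2 and glutathione genes, 0 were higher and 2 lower at an unadjusted p under 0.05, Nqo1, a quinone reductase, and Nfe2l2, which encodes NRF2. Without replicate 3 the NRF2 list had 3 members called higher and 1, Nfe2l2, lower, beside 13.6% and 10.7% of all genes. Nfe2l2 had 6392, 5694 and 7440 counts on 32 kPa, against 8578, 8245 and 7893 on 0.2 kPa, without overlap.

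With 6 libraries the other lists held few differences. Over all genes, 1.84% were higher and 2.76% lower at an unadjusted p under 0.05. Cell cycle genes had 0 of 34 members at an unadjusted p under 0.05, and Mki67, the proliferation marker, had 5208, 6632 and 8811 counts on 32 kPa, against 7979, 7966 and 6796 on 0.2 kPa. Replicate 3 was the highest of all 6 libraries for Mki67, and its fold change was -0.17 ± 0.18 with it and -0.36 without (limma adjusted p = 0.042). Without replicate 3, 3 of the 34 were called higher and 6 lower, beside 13.6% and 10.7% of all genes. Piezo1, a stretch-gated channel, and Yap1 itself had fold changes of 0.10 ± 0.12 and -0.07 ± 0.09, and neither was called without replicate 3. Integrin Itgb3, a subunit that binds vitronectin, had 1187, 957 and 1331 counts on 32 kPa, against 1470, 1608 and 1474 on 0.2 kPa. Of 29 integrin and adhesion genes tested, 1 was higher and 2 lower at an unadjusted p under 0.05. Without replicate 3, 3 of them were called higher and 4 lower, Itgb3 among the lower ones, beside 13.6% and 10.7% of all genes. Senescence and p53 genes had 0 of 16 at an unadjusted p under 0.05. Without replicate 3, 6 of these 16 were called higher, including Gdf15 (1.46), a stress-induced cytokine, and 2 lower, beside 13.6% and 10.7% of all genes. Of 16 interferon genes tested 0 were higher and 2 lower at an unadjusted p under 0.05 with 6 libraries, Irf1 among them. Without replicate 3, 1 of the 16 was called higher and 2 lower, beside 13.6% and 10.7% of all genes.

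The genes of lowest p without 32 kPa replicate 3 included several whose level in that library was near the soft gel. Gapdh, a glycolytic enzyme, had 1832, 2803 and 483 counts on 32 kPa, against 481, 538 and 421 on 0.2 kPa, and it has many processed copies, so its counts are uncertain. Rpl38, of the large ribosomal subunit, had 12341, 12470 and 7735 counts on 32 kPa, against 7368, 7216 and 7794 on 0.2 kPa. Peg3, an imprinted zinc finger gene, had 67.3, 89.8 and 459 counts on 32 kPa, against 362, 315 and 314 on 0.2 kPa. In all 3, the stiff replicates 1 and 2 stood apart from the other 4 libraries.

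Transcript length and base composition moved with the same split of libraries. Among genes of the shortest eighth by transcript length, median log2 differences from the soft mean were 0.34, 0.35 and -0.11 in 32 kPa replicates 1, 2 and 3, against -0.05, -0.03 and 0.08 on 0.2 kPa. In the longest eighth they were -0.21, -0.13 and 0.14 on 32 kPa, against 0.05, 0.01 and -0.06 on 0.2 kPa. Genes of the highest GC content stood at 0.25, 0.31 and -0.07 on 32 kPa, against -0.18, -0.02 and 0.18 on 0.2 kPa, so that soft libraries differed among themselves as well. Reads from ribosomal protein genes made up 5.31, 4.94 and 4.22% on 32 kPa, against 4.23, 4.25 and 4.45% on 0.2 kPa. With the length and GC trend removed and replicate 3 left out, limma called 2564 of 13957 genes higher (18.4%) and 1133 lower (8.12%), of which 1349 and 864 were also called without that step. The removal shifted the median of all genes to 0.05. Rpl38 was no longer called (limma adjusted p = 0.11), whereas Grem1, Mmp13, Il11, Spp1 and Cthrc1 were. Whether length and base composition account for the split of libraries was not tested.

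**Figure D5:**
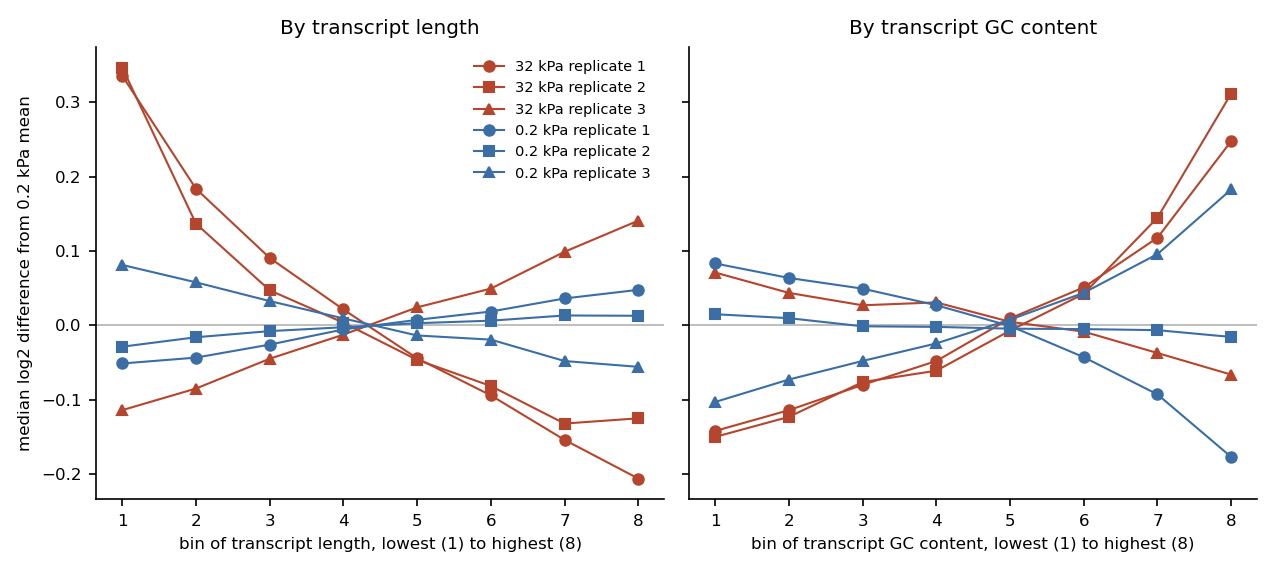
Median log2 difference of each gel library from the mean of the 0.2 kPa libraries, in 8 bins of transcript length (left) and transcript GC content (right), each of about an equal number of genes. Red lines are 32 kPa and blue lines 0.2 kPa. In the shortest bin 32 kPa replicates 1 and 2 stand at 0.34 and 0.35 and replicate 3 at -0.11.

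Levels in freshly sorted cells and after lung injury put the gel differences in scale. Spp1, Il11 and Cthrc1 were higher on both gels than in freshly sorted CD1 cells: Spp1 had a mean of 1184 counts on 32 kPa and 3848 on 0.2 kPa, and 178 ± 24.5 in sham cells (SD, n = 3). Against sham, Spp1 differed on 32 kPa (limma adjusted p = 8.3e-07) and on 0.2 kPa (limma adjusted p = 2.4e-08). Adamtsl2, Serpina3n, Ace and Serping1 were lower on both gels: Adamtsl2 had a mean of 8.94 on 32 kPa and 62.6 on 0.2 kPa, and 10975 in sham cells. For Adamtsl2 the log2 fold change against sham was -10.20 on 32 kPa (limma adjusted p = 8.2e-10) and -7.42 on 0.2 kPa (limma adjusted p = 7.2e-09). Both comparisons share the sham libraries. The genes lower on the stiff gel included some above and some far below their level in the lung.

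In the C57BL/6 mice, whose libraries share nothing with the gels, limma called 1952 of 16076 genes higher (12.1%) and 1448 lower (9.01%) at day 14 after bleomycin against sham. Of the 15 genes lower on 32 kPa, 14 were tested, of which 8 were called higher and 3 lower at day 14. Spp1 had 395053 ± 132737 counts at day 14 and 973 ± 483 in sham mice (SD, n = 4), a log2 fold change of 8.74 ± 0.31 (limma adjusted p = 6.9e-09). Cthrc1 had 12491 ± 938 at day 14 and 101 ± 67.0 in sham, and Serpina3n 117588 ± 34166 at day 14 and 21675 ± 2609 in sham. At day 56 Spp1 stood at 3329 ± 600 and Cthrc1 at 505 ± 238. Tmem119 fell by 0.52 on the log2 scale at day 14 (limma adjusted p = 0.014). Of the 15 genes higher on 32 kPa, 12 were tested at day 14, of which 4 were called higher and 0 lower, while Tgm2 (-0.37, limma adjusted p = 0.14) and Tagln (0.50, limma adjusted p = 0.088) were not called. Sorting differed between the strains, since CD31-positive cells were removed in CD1 only.

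Chromatin accessibility, measured by ATAC-seq in other libraries of the same gels, is described from the authors' deposited table of regions. It holds 2558 regions that differed between gels, 2551 of them higher on 32 kPa and 7 lower, and each value is the authors' own. Of the 15 lower genes 1 had a region annotated to it, and of the 15 higher genes 3. A region annotated to Fzd1, whose RNA was lower on 32 kPa, was more accessible there, by 1.04 on the log2 scale in the authors' deposited table. It lies 233990 bases from the Fzd1 start, in an intron of Cdk14, a cyclin-dependent kinase gene. Ankrd1 and Col1a1, whose RNA overlapped between the gels, had regions higher by 1.16 and 1.02 in the authors' deposited table. For C330021F23Rik, higher on 32 kPa in RNA, the authors' deposited table gives a region lower by 1.13. Hspa1b and Nptx2 were higher on 32 kPa in RNA and had regions higher by 1.12 and 1.09 there. Cav1 and Egln3 had regions higher by 1.0 and 1.29 in the authors' deposited table, with RNA fold changes of 0.23 and 0.24. Angpt2, Bmp2, Fgf7, Itgb3, Col3a1, Nfe2l2, Serpine2 and Sun1 had higher regions too, with RNA fold changes below 0. Over the 1370 tested genes nearest to a higher region, 1.9% were higher and 3.28% lower in RNA at an unadjusted p under 0.05, beside 1.84% and 2.76% of all genes.

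A set of 3 regions is shown because RNA and accessibility can be read side by side at them: each is the 200 bases around the region's centre, mm10 plus strand, from RefSeq GRCm38.p6. Capitals mark TGANTCA, the AP-1 motif, and GGAATG, the TEAD motif, on either strand, and no motif overlaps another. The AP-1 motif is in 51.5% and the TEAD motif in 22.4% of such windows of all 2558 regions, and an SRF box (CArG) in 0.665%. The first, at chr19:36128683-36128882, lies 8938 bases upstream of Ankrd1 and holds none of these letters. The second, at chr11:94936751-94936950, lies in intron 1 of Col1a1, and the third, at chr5:4992107-4992306, is the one in Cdk14 annotated to Fzd1.
Ankrd1 region: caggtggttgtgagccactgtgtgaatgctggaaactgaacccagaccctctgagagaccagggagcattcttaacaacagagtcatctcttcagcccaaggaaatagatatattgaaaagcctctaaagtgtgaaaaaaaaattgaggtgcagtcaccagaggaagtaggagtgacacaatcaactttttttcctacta
Col1a1 region: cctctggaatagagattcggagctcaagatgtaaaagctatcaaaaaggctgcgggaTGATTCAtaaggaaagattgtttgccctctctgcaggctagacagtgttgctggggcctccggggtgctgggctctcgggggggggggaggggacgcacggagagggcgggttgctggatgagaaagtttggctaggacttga
Fzd1 region: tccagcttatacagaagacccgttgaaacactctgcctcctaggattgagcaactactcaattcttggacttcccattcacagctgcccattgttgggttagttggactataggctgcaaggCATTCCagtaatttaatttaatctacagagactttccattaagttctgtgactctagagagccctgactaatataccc

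Promoters of RefSeq (GRCm38.p6), from 250 bases before to 50 after a start, were found for 17 of the 30 genes of lowest p. They are shown for Il11 and Myl12a, a lower and a higher gene picked because a window of each holds the AP-1 motif. For Il11 the table lists 2 starts, and the window at chr7:4778092-4778391 (minus strand) holds it at position -98, counted from the start, while the other window holds none. For Myl12a, at chr17:71002484-71002783 (minus strand), the AP-1 motif begins at -137 and a TEAD motif at 28. The AP-1 motif occurs in 7.81%, the TEAD motif in 14.7% and the SRF box in 1.63% of all 32851 promoters of the table. Among the 17 genes, Prl2c3, a lower gene, is the only other one with the AP-1 motif, at -209. TEAD motifs also lie in windows of the lower genes Olfml3, at -64, and Kazald1, at -231. The windows of Spp1, Serpina3n and Adamtsl2 hold none of the 3 motifs.
Il11 promoter: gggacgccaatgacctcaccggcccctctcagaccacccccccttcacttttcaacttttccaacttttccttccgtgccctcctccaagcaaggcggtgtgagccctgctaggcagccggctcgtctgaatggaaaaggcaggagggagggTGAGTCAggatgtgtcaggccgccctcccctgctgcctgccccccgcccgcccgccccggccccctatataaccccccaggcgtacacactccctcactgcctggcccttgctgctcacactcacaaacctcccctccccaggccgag
Myl12a promoter: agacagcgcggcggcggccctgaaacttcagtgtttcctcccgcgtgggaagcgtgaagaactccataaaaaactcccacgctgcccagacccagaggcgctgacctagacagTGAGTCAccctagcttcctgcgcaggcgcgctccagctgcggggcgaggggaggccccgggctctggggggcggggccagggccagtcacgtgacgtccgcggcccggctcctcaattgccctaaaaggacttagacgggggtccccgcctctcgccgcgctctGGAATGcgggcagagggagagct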

How the data were processed

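The RNA tables hold gene signal that, per the file headers and the values, the authors normalised; every column was a whole read count divided by 1 factor (100% of values whole within 0.05 reads), so recovered reads served as counts for edgeR 4.0.16 and DESeq2 1.42.0. The submitters' processing notes name HISAT2, featureCounts, DESeq2 and mm10; no tool version or strand setting was found in the labels, headers or notes. The deposited log2 fold changes and adjusted p-values are the authors' own, as are the deposited log2 concentrations and log2 fold of the ATAC regions. Values were rescaled by median-of-ratios, genes with a mean of at least 10 were kept, and log2(value + 1) was tested by limma 3.58.1 (trend, R 4.3.3) over the 6 gel libraries with Benjamini-Hochberg adjustment at 0.05. Of 27178 entries, 855 without a symbol were left out (3.03 to 4.77% of gel reads). Named genes were the 15 of lowest p in each direction (mean of at least 20, groups not overlapping), up to 4 of each list and a fixed panel; a few genes outside it (Grem1, Mmp13, Peg3, Rpl38, Aspn, Ogn, Lum, Dcn, Actb, Srf, Lmod1, Egr3, Gdf15) were named after their values were seen. Members and lists were chosen with earlier results of these data known. Length and GC come from the longest GENCODE M21 transcript. The scripts were tested on simulated data. A few genes the rule names are not reported here.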

Additional observations from a re-analysis of the deposited data

How the results depend on the processing

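Each gel library held 35858180 or more recovered reads, and what limits the number of calls was not tested beyond the settings given here. The count of 0 called genes became 2 with all 9 CD1 libraries in one fit, 47 with DESeq2, 41 in the authors' deposited table and 3 with the length and GC trend removed, and leaving out 1 library gave 0 to 3453. It was 0 under the other alternatives run (deposited scaling, TMM factors, filters, pseudocounts, robust or untrended variance, edgeR). Deviations of same-numbered libraries correlated at -0.127, -0.0629 and -0.359. With 3 libraries per group and 32 kPa replicate 3 apart from its group, these values cannot decide whether replicate numbers pair the samples. The fit with the replicate block called 0 genes with 6 libraries and 5695 without 32 kPa replicate 3. The 3453 genes called without that library were 3377 with edgeR, 3740 with DESeq2, 3476 with the deposited scaling and 3697 with length and GC removed, and leaving out 1 more library gave 1012 to 4695. Apart from the edgeR fit, the alternatives without that library and the removal of the length and GC trend were chosen after seeing the data. Small fold changes turned sign. With length and GC removed, Tnc had 0.047, Postn 0.083 and Yap1 0.055, and with edgeR Tnc had 0.019. Leaving out 1 library gave ranges of -0.015 to 0.121 for Ankrd1, -0.067 to 0.213 for Col1a1, -0.086 to 0.154 for Fn1, -0.326 to 0.115 for Tnc, -0.345 to 0.105 for Postn, -0.391 to 0.022 for Lox, -0.363 to 0.016 for Mki67 and -0.014 to 0.193 for Piezo1. With 6 libraries the median of the AP-1 and immediate-early list was 0.15 with length and GC removed, against 0.25 without that step. The cause was not tested.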
